A study of Mus musculus with 59 samples.

Results

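The change from control ESCs to control EBs of the conditional *Pcgf1* line was examined across all genes, with 9 of the 59 RNA-seq libraries of the series. The members are the deposited libraries of control ESCs (4) and control EBs (5) of this line, chosen by the names of their files, which match their labels. Both groups are ERT2-Cre;Pcgf1f/f cells without 4-OHT, so they carry floxed *Pcgf1* alleles and a Cre recombinase, driven from the *Rosa26* locus, that was not activated. ESCs are pluripotent cells of the early embryo, grown here on mouse embryonic fibroblasts (MEFs) with LIF and the 3i inhibitors SU5402 (FGF receptors), PD184352 (MEK) and CHIR99021 (GSK3). EBs are the cell aggregates formed after 2 days without LIF and inhibitors in low attachment dishes. The line was derived from blastocysts, and both groups are states of 1 line. Each comparison asks which programmes of gene expression changed as cells left the ESC state. *Pcgf1*-KO ESCs (5 libraries) and EBs (5), which are the same line with 4-OHT, were used to show where the control change differed. They also shared the fit of the control change, so they entered its estimate of the spread between libraries. Untreated ESCs (2) and EBs (2) of the *Ring1A*-pm; *Ring1B*-cpm line were used only to show where the control change differed. That line carries point mutant *Ring1A* alleles and Cre without 4-OHT.

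Naive pluripotency in mouse ESCs rests on a network of transcription factors that LIF, acting through STAT3, and WNT signalling, mimicked by inhibition of GSK3, help to sustain. FGF signalling through ERK drives the exit from this state, and cells then pass through a formative state like the epiblast after implantation, before they become competent for germ layers. In that transition the epiblast becomes a polarised epithelium on a basement membrane, and the use of metabolic pathways is known to shift.

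The results on signalling turn in part on target genes of 3 pathways that the culture change touches, so the RefSeq promoter of 1 target of each is shown, as the 250 bases before the annotated start in build GRCm38.p6, with the searched motif in capitals. The windows are chr11:117969367-117969616 (minus strand) for *Socs3*, the inhibitor of LIF signalling that STAT3 induces, chr2:70474673-70474922 (plus strand) for *Sp5*, a WNT target, and chr3:145649986-145650235 (minus strand) for *Cyr61* (*Ccn1* in RefSeq), a target of YAP and TEAD factors. All are given 5′ to 3′ on the strand of the gene.
Socs3: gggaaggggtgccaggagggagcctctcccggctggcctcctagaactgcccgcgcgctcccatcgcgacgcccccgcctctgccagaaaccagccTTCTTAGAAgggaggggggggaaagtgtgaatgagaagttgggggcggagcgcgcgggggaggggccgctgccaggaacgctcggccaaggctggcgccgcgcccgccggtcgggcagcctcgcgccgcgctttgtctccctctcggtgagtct
Sp5: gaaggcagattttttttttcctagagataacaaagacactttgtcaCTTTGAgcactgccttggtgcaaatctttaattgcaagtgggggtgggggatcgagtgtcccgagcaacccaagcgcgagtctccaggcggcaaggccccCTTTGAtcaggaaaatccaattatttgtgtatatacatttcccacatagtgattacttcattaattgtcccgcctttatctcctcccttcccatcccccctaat
Cyr61: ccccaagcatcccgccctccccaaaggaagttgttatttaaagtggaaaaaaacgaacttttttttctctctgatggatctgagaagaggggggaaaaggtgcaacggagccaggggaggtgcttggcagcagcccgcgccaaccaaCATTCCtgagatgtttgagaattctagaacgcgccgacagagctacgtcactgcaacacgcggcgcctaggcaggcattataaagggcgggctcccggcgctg
The letters TTCNNNGAA (STAT), CTTTGA (TCF and LEF) and GGAATG (TEAD) were searched on both strands. The *Socs3* window holds TTCNNNGAA once, 154 bases before the start, and the *Sp5* window holds CTTTGA at 204 and 104 bases before it. The *Cyr61* window holds GGAATG once, on the opposite strand, 103 bases before the start. These matches are a description only. Of 32851 such windows, 7.02% hold TTCNNNGAA, 13.8% CTTTGA and 12.6% GGAATG. By gene, with 27025 genes, these shares are 8.13%, 15.8% and 14.4%. Of the LIF-STAT3 list 17 of 18 members had a window and 1 held its motif, against 7 of 24 matched for WNT (39 members) and 9 of 14 matched for YAP-TEAD (17 members).

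Levels were deposited by the authors as TPM, a length-scaled unit that sums to 1000000 in each library, and these values keep no record of the read depth. Library identifiers place the replicates in 3 series (1 alone, 2 with 3, 4 with 5), each of which holds both groups. Over 13446 genes, r of log2(TPM + 0.1) was 0.90 to 0.96 between control ESC libraries, 0.90 to 0.98 between control EB libraries and 0.79 to 0.89 between the groups. Nothing in the labels says that replicates came from separate cultures, so p-values measure the spread between these libraries, which may be technical. In bulk RNA, fewer cells of a type and less RNA per cell cannot be told apart. A few genes that every cell uses, *Ndufs5* and *Hmgcs1* among them, are listed at 0 in all libraries, so a 0 is given only as listed.

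Of 20594 genes tested with limma, 24.9% passed an adjusted p (Benjamini-Hochberg) of 0.05. They were 2377 genes higher in EBs (11.5%) and 2761 lower (13.4%), and 97.7% of them moved in the same direction within all 3 library series. As these genes were called from the same libraries, that share is in part set by the selection. The libraries of the groups did not overlap at 21.7% of genes (10.1% higher, 11.5% lower in EBs). The spread in this fit came from all libraries of the line, *Pcgf1*-KO included. Fitted on the control libraries alone, 1991 genes were higher and 2355 lower, and 10 named genes lost their call. With the replicate number as a block, here called the paired fit, 4255 genes were higher and 4795 lower. The labels do not say that equal numbers are pairs, and EB replicate 5 has no control ESC library of its number. The block also held the *Pcgf1*-KO libraries. All further adjusted p-values are from limma over all genes, and log2 fold changes are EB minus ESC on log2(TPM + 0.1), given with their SE. The share of genes that passed was 12.9% at a mean below 1 TPM, 35.8% from 1 to 10, 30% from 10 to 100 and 26.1% above that. The gene lists were chosen with earlier results of these data known, so their counts are a description. Over 33 gene lists of 5 programmes, 681 members were tested, of which 604 reached a group mean of 1 TPM. Of the 681, 112 rose and 162 fell, with a median log2 fold change of -0.11 against -0.0045 over all genes tested and -0.05 over the 14034 genes that reached a group mean of 1 TPM. Of those 14034 genes, 2049 rose and 2439 fell, a larger share than the 24.9% of all genes tested. Most list members are such genes, and the counts of each list below stand beside both shares.

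**Figure D1:**
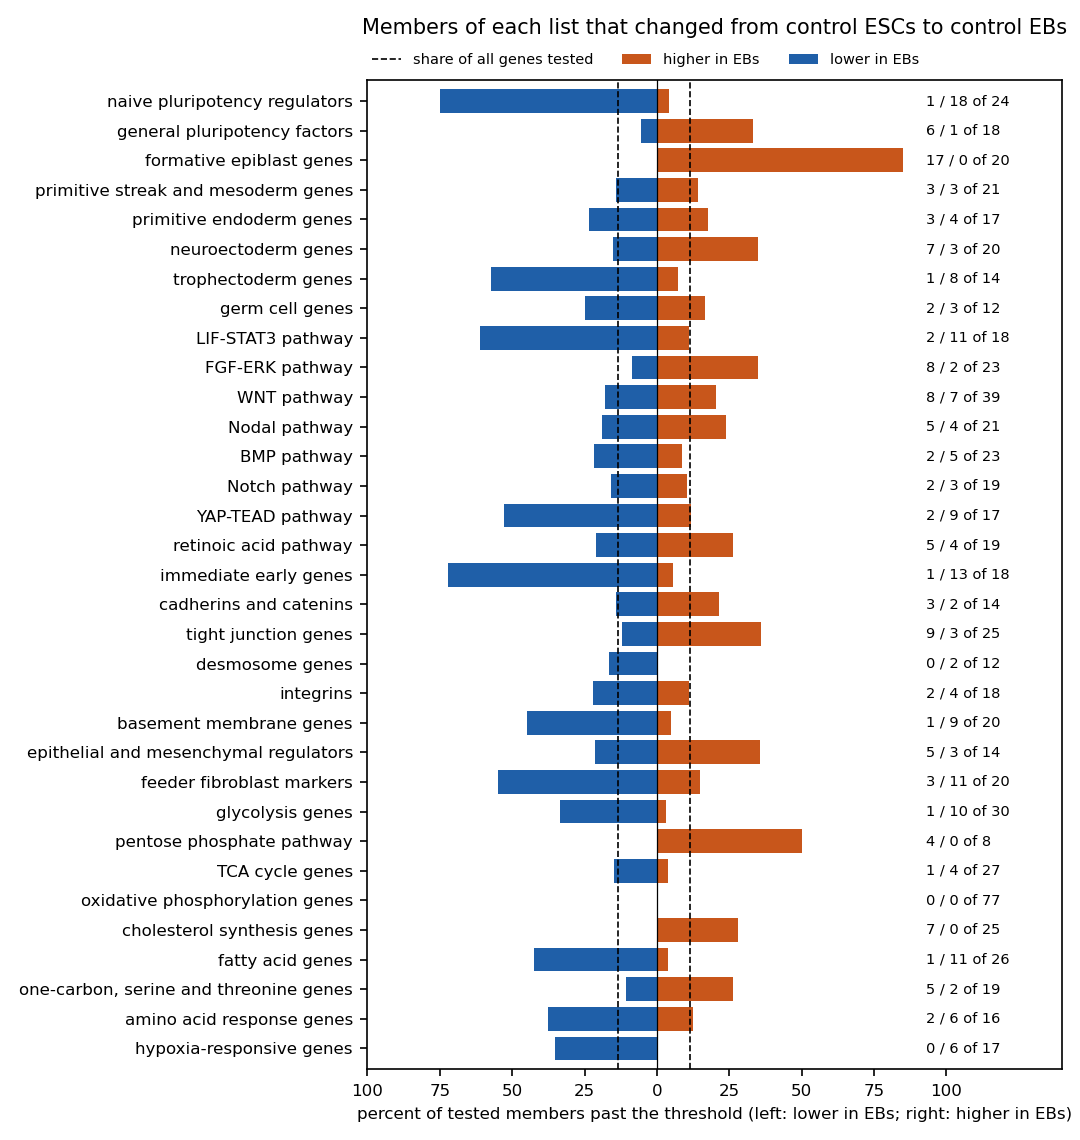
Percent of the tested members of each gene list that passed the limma test (adjusted p under 0.05), with members higher in EBs to the right and lower in EBs to the left. Dashed lines mark the share of all genes tested, 11.5% higher and 13.4% lower, and the numbers at the right are members higher and lower of those tested. Formative epiblast genes reach farthest to the right (17 of 20) and naive pluripotency regulators (18 of 24) and immediate early genes (13 of 18) are among those farthest to the left. The lists were chosen with earlier results of these data known, so the counts are a description.

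Both groups expressed the core pluripotency factors. *Pou5f1*, which encodes OCT4, was at 1688, 1079, 1027 and 1753 TPM in ESCs and at 1723, 1155, 1240.0, 1579.6 and 1621 TPM in EBs. The groups overlapped and did not differ past the threshold (log2 fold change 0.1 ± 0.25, adjusted p = 0.825). *Sox2*, the partner of OCT4, was at 448, 752, 731 and 497 TPM in ESCs and at 280.0, 422, 339.8, 501 and 482 TPM in EBs, and passed only in the paired fit (adjusted p = 0.084, 0.012 paired). *Gata6* of the primitive endoderm was at 0.49 to 1.96 TPM in ESCs and 0.355 to 1.19 TPM in EBs, and *Cdx2* of the trophectoderm at 0.792 to 1.06 and 0.222 to 2.64 TPM.

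The naive network fell. Of 24 naive regulators, 18 fell, 1 rose and 5 did not pass (median -2.43, 21 lower and 2 higher in the paired fit), and the 18 comprise 12 of 18 transcription factors and co-regulators and 6 of 6 surface and enzyme markers. *Klf2* (chr8:74842932-74845555, mm9), a Krüppel-like factor of the naive state, was at 464, 598, 582 and 591 TPM in ESCs and at 53.8, 69.9, 40.6, 149 and 162 TPM in EBs. *Esrrb* (chr12:87702067-87862578), an orphan nuclear receptor, was at 301, 532, 628 and 341 TPM in ESCs and at 39.4, 76, 38.3, 105 and 95.1 TPM in EBs. *Tfcp2l1*, a CP2-family factor that LIF sustains, went from 347, 540.0, 658 and 343 TPM to 9.48, 18.8, 8.93, 17.7 and 14.9 TPM. No EB library of these genes overlapped the ESC libraries, and the log2 fold changes were -2.76 ± 0.43 for *Klf2* (adjusted p = 0.000104), -2.73 ± 0.37 for *Esrrb* (2.87e-05) and -5.08 ± 0.36 for *Tfcp2l1* (2.35e-08).

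*Nanog* (chr6:122657507-122664651), the homeobox factor that stabilises the naive state, was at 849, 684, 680.4 and 738 TPM in ESCs and at 228, 95.9, 120.1, 229.7 and 224 TPM in EBs, a fall of 2.12 on the log2 scale (SE 0.35, adjusted p = 0.000178). Its EB level was lowest in replicates 2 and 3. *Zfp42*, which encodes the ESC marker REX1, was at 211, 198, 202 and 168 TPM in ESCs and at 44.6, 54.1, 43.8, 71.7 and 64.4 TPM in EBs (log2 fold change -1.82 ± 0.18, adjusted p = 1.09e-06). *Klf5* varied widely between libraries, at 188, 1240.3, 945 and 317 TPM in ESCs and at 24.4, 159, 75.9, 50.2 and 50.8 TPM in EBs. Replicate 1 was lowest in both groups and replicate 2 highest, the groups did not overlap, and the log2 fold change was -3.11 ± 0.69 with an adjusted p of 0.00259 (2.13e-07 paired). *Tdh*, threonine dehydrogenase, and *Jam2*, a junction protein, are in the naive list as markers. *Tdh* was at 316 to 485 TPM in ESCs and 78.4 to 149 TPM in EBs, and *Jam2* at 111 to 143 and 2.35 to 12.7 TPM (log2 fold changes -1.79 ± 0.22 and -4.31 ± 0.46).

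The exception that rose was *Gbx2*, a homeobox gene that LIF induces. It was at 3.68, 7.39, 6.94 and 9.23 TPM in ESCs and at 9.9, 34.6, 31.7, 16 and 17.7 TPM in EBs, with a log2 fold change of 1.6 ± 0.37 (adjusted p = 0.0033). *Mybl2*, a cell cycle factor on the same list, was at 518 to 1138 TPM in ESCs and 347 to 688 TPM in EBs, and passed only in the paired fit (adjusted p = 0.154, 0.00922 paired).

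Factors shared by naive and primed cells did not fall together. Of 18 general pluripotency factors, 6 rose and 1 fell (median 0.30, 11 higher and 2 lower in the paired fit). *Utf1*, a chromatin factor of undifferentiated cells, was at 159, 340.0, 303 and 245 TPM in ESCs and at 629, 1444, 1128, 1128 and 1256 TPM in EBs. *Lin28b*, which blocks let-7 processing, was at 4.72, 8.01, 7.04 and 6.28 TPM in ESCs and at 40.8, 59, 60.5, 25.2 and 25.4 TPM in EBs, and *Dppa2*, a chromatin-associated protein of pluripotent cells, was at 45.5, 38.5, 38.6 and 45.9 TPM and 105, 127, 124, 112 and 107 TPM. All 3 were higher in every EB library than in any ESC library (log2 fold changes 2.1 ± 0.27, 2.6 ± 0.37 and 1.45 ± 0.11, adjusted p = 1.62e-05, 4.86e-05 and 6.95e-08). The member that fell was *Tdgf1*, the NODAL co-receptor CRIPTO, from 1724, 1162, 1227 and 1255 TPM to 753, 574, 716, 924 and 909.5 TPM (log2 fold change -0.79 ± 0.19, adjusted p = 0.00402).

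Formative epiblast genes rose. Of 20 tested, 17 rose and none fell (median 2.85), with 9 of 10 transcription factors and 8 of 10 ligands, enzymes and others. For the members that fell, limma gave 0 both here and in the paired fit, and 0 at an unadjusted p under 0.05. *Pou3f1*, which encodes OCT6, was at 1.49, 4.37, 3.02 and 2.7 TPM in ESCs and at 139, 421, 341, 115 and 124 TPM in EBs. *Otx2* (chr14:49277354-49287319), which redirects OCT4 to new enhancers, was at 15.3, 37.4, 31 and 13.8 TPM in ESCs and at 92.6, 116, 76.9, 113 and 112 TPM in EBs. *Dnmt3b* (chr2:153475186-153513466), a de novo DNA methyltransferase, was at 20.9, 33.8, 38.3 and 42.1 TPM in ESCs and at 1234, 2344, 2313, 774 and 795 TPM in EBs.

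The log2 fold changes were 6.12 ± 0.55 for *Pou3f1* (adjusted p = 3.97e-07), 2.18 ± 0.32 for *Otx2* (7.33e-05) and 5.34 ± 0.53 for *Dnmt3b* (1.07e-06), with no overlap between groups. For *Pou3f1* and *Dnmt3b*, replicates 2 and 3 were the highest EB libraries. *Fgf5* (chr5:98683203-98706049), the classic ligand of the epiblast after implantation, was at 0.0893, 0, 0.227 and 0.292 TPM in ESCs and at 46.2, 68.5, 64.5, 26.6 and 25.4 TPM in EBs (log2 fold change 7.58 ± 0.6, adjusted p = 9.3e-08). *Wnt8a*, a WNT ligand, is listed at 0 in all ESC libraries and was at 18.8, 10.7, 20.9, 6.58 and 6.01 TPM in EBs (adjusted p = 1.17e-05). *Lef1*, a nuclear factor of WNT signalling, was at 5.7, 7.37, 10.3 and 2.35 TPM in ESCs and at 10.9, 42.9, 38, 48.9 and 44 TPM in EBs, where replicate 1 was far lower than the other EB libraries (log2 fold change 2.51 ± 0.69, adjusted p = 0.0115).

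**Figure D2:**
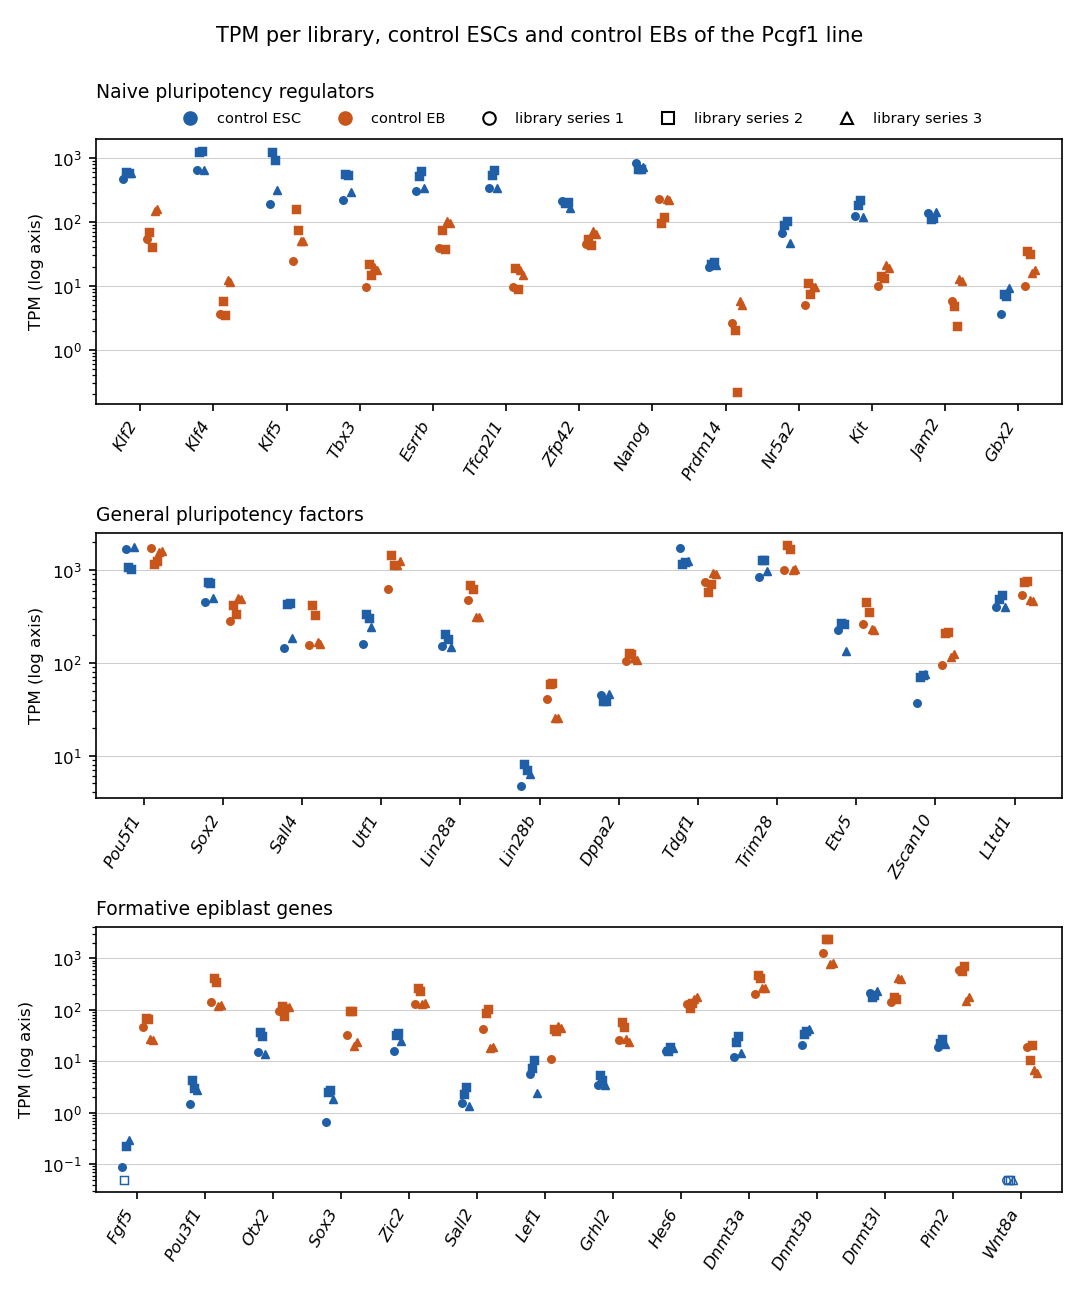
TPM on a log axis for each control ESC (blue) and control EB (orange) library, with 1 symbol shape per library series; hollow symbols stand at 0.05 TPM for libraries listed below that or at 0. Most naive factors lie higher in ESCs, while *Gbx2* of the same panel lies higher in EBs. Most formative genes lie higher in EBs, and *Pou5f1* and *Sox2* overlap between the groups.

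Lineage genes changed in both directions, and the summed levels of the lists differed. They were 31.7 to 58.5 TPM in ESCs and 16.3 to 45.9 TPM in EBs for primitive streak and mesoderm, 991 to 1174 and 491 to 698 TPM for primitive endoderm, where *Apoe* alone was at 980.2 to 1161 and 461 to 679.5 TPM, 107 to 373 and 147 to 344 TPM for neuroectoderm, and 202 to 296 and 129.6 to 197 TPM for trophectoderm. Of 84 members of 5 lineage lists, 16 rose and 21 fell (median -0.13). Primitive streak and mesoderm genes had 3 higher and 3 lower of 21 (median -0.02). The share that passed, 28.6%, was near the 24.9% of all genes tested. The 3 that fell were transcription factors, while the 3 that rose were ligands. *Eomes*, a T-box factor of the streak, was at 13.4, 23.2, 30 and 15.7 TPM in ESCs and at 6.83, 3.28, 4.27, 4.68 and 4.67 TPM in EBs (log2 fold change -2.06 ± 0.34, adjusted p = 0.000198). *Gsc*, of the organiser, was at 2.29, 2.17, 2.42 and 5.53 TPM in ESCs and at 0.736, 0, 0.966, 0.405 and 0.778 TPM in EBs (adjusted p = 0.00588). *T*, which encodes brachyury, was at 1.53, 1.04, 1.66 and 0.833 TPM in ESCs and at 2.96, 1.13, 2.22, 0.349 and 0.372 TPM in EBs, so the groups overlapped and it did not pass (adjusted p = 0.808). Within EBs *T* was higher in replicates 1 to 3 than in replicates 4 and 5.

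The streak ligands rose from levels below 1 TPM. *Fgf8* was at 0.678, 0, 0.43 and 0.492 TPM in ESCs and at 4.59, 4.4, 7.74, 1.98 and 3.81 TPM in EBs (adjusted p = 0.000112). *Wnt3*, the WNT ligand that streak formation requires, was at 0.144, 0.136, 0.182 and 0.26 TPM in ESCs and at 2.78, 2.23, 6.19, 0.382 and 0.489 TPM in EBs, with replicates 4 and 5 nearest to ESCs (log2 fold change 2.57 ± 0.87, adjusted p = 0.0375). *Apln*, the ligand of the apelin receptor, was at 0.361 to 0.852 TPM in ESCs and 1.89 to 5.94 TPM in EBs (log2 fold change 2.14 ± 0.39, adjusted p = 0.000547). *Wnt3* did not pass when ESC replicate 1, 2, 3 or 4 or EB replicate 1, 2 or 3 was left out (adjusted p = 0.0551 to 0.101). *Wnt3* had a log2 fold change of 2.31 without library series 1 (adjusted p = 0.16) and 1.66 without library series 2 (adjusted p = 0.28).

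Neuroectoderm genes had 7 higher and 3 lower of 20 (median 0.92). Within library series 1 to 3 the medians were 1.18, 1.36 and 0.15. *Pax6*, the homeobox factor of neural plate and eye, was at 0.329, 0.0892, 0.119 and 0.136 TPM in ESCs and at 3.63, 2.19, 3.69, 4.4 and 3.74 TPM in EBs (log2 fold change 3.8 ± 0.45, adjusted p = 7.4e-06). *Sox1*, the earliest neural plate SOX factor, was at 0.775, 4.1, 3.23 and 2.85 TPM in ESCs and at 1.86, 7.61, 12.5, 5.6 and 6.03 TPM in EBs, and passed only in the paired fit (adjusted p = 0.0874, 0.00107 paired). In the other direction *Hesx1*, a homeobox gene of the anterior neural plate and pituitary, was at 10, 9.33, 6.49 and 14.8 TPM in ESCs and at 0.507, 2.04, 0.499, 1.26 and 0.803 TPM in EBs (log2 fold change -3.31 ± 0.49, adjusted p = 7.09e-05). *Ncam1*, a neural adhesion protein, fell at low levels (adjusted p = 0.0367). *Ncam1* did not pass when ESC replicate 2, 3 or 4 or EB replicate 1, 4 or 5 was left out (adjusted p = 0.0719 to 0.0948).

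Of 17 primitive endoderm genes, 3 rose and 4 fell (median -0.07). The risers were products, among them *Dab2*, an endocytic adaptor, at 1.21, 0.917, 1.1 and 1.1 TPM in ESCs and at 10.3, 12.8, 14.2, 3.6 and 4.64 TPM in EBs (adjusted p = 4.14e-05), and *Pth1r*, the parathyroid hormone receptor, at 1.17 to 5.68 TPM in EBs. *Apoe*, the lipid carrier and the most abundant member, was at 1007, 1161, 1102 and 980.2 TPM in ESCs and at 595, 542, 461, 679.5 and 645 TPM in EBs (log2 fold change -0.87 ± 0.17, adjusted p = 0.0011). Trophectoderm genes had 8 lower and 1 higher of 14 (median -1.44), with 6 of 9 transcription factors lower. *Gata2* was at 7.03, 17.5, 17.5 and 12 TPM in ESCs and at 0.711, 0.715, 2.1, 0.514 and 0.422 TPM in EBs (log2 fold change -3.9 ± 0.47, adjusted p = 8.49e-06). The homeobox gene *Esx1* and the keratin gene *Krt7* fell as well (log2 fold changes -2.29 ± 0.31 and -2.49 ± 0.33), whereas *Krt18*, a keratin of simple epithelia, rose from 32.1, 26.4, 25.5 and 22.8 TPM to 82.5, 61.3, 52.2, 99.1 and 96.4 TPM (adjusted p = 1.48e-05).

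Germ cell genes had 2 higher and 3 lower of 12 (median -0.70, 3 higher and 6 lower in the paired fit). Within library series 1 to 3 the medians were -0.37, -0.70 and 0.036. *Prdm1*, which encodes the germ cell repressor BLIMP1, was at 12.7, 20.6, 26.3 and 10.8 TPM in ESCs and at 5.65, 8.02, 5.88, 11.5 and 8.8 TPM in EBs (log2 fold change -1.09 ± 0.29, adjusted p = 0.00979). Genes of the piRNA pathway, which silences transposons, split in direction. *Mael* rose (7.34 to 12 TPM in ESCs, 19.5 to 35 TPM in EBs) and so did *Tdrd1* (0.209 to 0.624 and 1.48 to 6.46 TPM). *Piwil2* (16.5 to 21.6 and 6.04 to 12.5 TPM) and *Mov10l1* (4.9 to 7.99 and 2.77 to 4.86 TPM) fell, with adjusted p-values of 0.0265 and 0.0285. *Piwil2* did not pass when ESC replicate 1 or 3 or EB replicate 1 was left out (adjusted p = 0.0501 to 0.0793). *Mov10l1* did not pass when ESC replicate 1, 2 or 3 or EB replicate 1 or 5 was left out (adjusted p = 0.0619 to 0.0884). *Prdm1* had a log2 fold change of -0.49 without library series 2 (adjusted p = 0.332).

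Signalling genes had 35 higher and 56 lower of 195 (median -0.22). Members of the LIF-STAT3 pathway fell among receptors and among targets. Of 18 members, 11 fell and 2 rose (median -1.17), with 5 of 7 receptors and kinases and 6 of 11 targets and inhibitors lower. *Lifr* (chr15:7079559-7147489), the LIF receptor, was at 23.8, 37.5, 42.2 and 22.3 TPM in ESCs and at 5.72, 10.5, 4.94, 12.3 and 11 TPM in EBs (log2 fold change -1.85 ± 0.36, adjusted p = 0.000877). *Socs3* (chr11:117827393-117831361 in mm9), whose promoter is shown above with its single STAT motif, was at 79.7, 156, 179.7 and 161 TPM in ESCs and at 2.54, 5.96, 3.75, 5.07 and 5.25 TPM in EBs. No EB library came near the ESC range, with a log2 fold change of -4.96 ± 0.38 and an adjusted p of 5.97e-08.

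The members that rose were *Socs2*, a relative of *Socs3* best known as an inhibitor of growth hormone signalling, and *Gadd45g*, a stress and differentiation gene. *Socs2* was at 22.2, 45.9, 40.4 and 41.4 TPM in ESCs and at 72.9, 99.9, 86.8, 67.3 and 64.3 TPM in EBs (log2 fold change 1.09 ± 0.23, adjusted p = 0.00169). *Gadd45g* was at 5.18, 7.08, 8.94 and 6.99 TPM in ESCs and at 13.6, 25.2, 24.7, 54.9 and 59.8 TPM in EBs, with replicates 4 and 5 highest (log2 fold change 2.14 ± 0.36, adjusted p = 0.000223).

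In the FGF-ERK pathway, 8 of 23 members rose and 2 fell (median 0.50, 14 higher and 4 lower in the paired fit). Ligands made up 3 of those that rose, of 6. *Fgf15* was at 2.23, 0.94, 1.89 and 1.12 TPM in ESCs and at 21.2, 29.5, 31.7, 28.6 and 30.9 TPM in EBs (log2 fold change 4.18 ± 0.28, adjusted p = 1.69e-08), beside *Fgf5* and *Fgf8*. *Fgf4*, the ligand that ESCs make themselves, was at 225, 293, 308 and 215 TPM in ESCs and at 127, 237, 178, 242 and 238 TPM in EBs, and passed only in the paired fit (log2 fold change -0.37 ± 0.2, adjusted p = 0.203, 0.0429 paired). *Fgfr1*, the main receptor, was at 30.2, 78, 74.6 and 42.6 TPM in ESCs and at 47.4, 116, 104, 46.8 and 48.4 TPM in EBs, where replicates 2 and 3 were highest in both groups, and it too passed only in the paired fit (0.604, 0.00184 paired).

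Feedback and target genes of ERK did not move as 1 group, with 4 higher and 2 lower of 13. *Spry2*, a feedback inhibitor, was at 189, 280.1, 263 and 200.2 TPM in ESCs and at 125, 157, 164, 76.7 and 77.4 TPM in EBs (log2 fold change -1.01 ± 0.27, adjusted p = 0.00874). *Phlda1* fell as well (log2 fold change -1.56 ± 0.39, adjusted p = 0.00627). *Etv5*, an ETS factor that FGF signalling induces, was at 227, 266, 264 and 134 TPM in ESCs and at 264, 456, 350.1, 233 and 228 TPM in EBs and passed only in the paired fit (0.323, 0.000751 paired). *Spry1* and *Dusp6*, feedback genes named after their values were seen, had log2 fold changes of 1.5 ± 0.17 (adjusted p = 3.74e-06) and 1.4 ± 0.5 (0.0459). Neither gene was followed when libraries or series were left out, and *Dusp6* lay close to the threshold. *Phlda1* had a log2 fold change of -1.23 without library series 2 (adjusted p = 0.17).

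In the WNT pathway 8 of 39 members rose and 7 fell (median -0.04, 12 higher and 11 lower in the paired fit), and both receptors and targets moved in each direction. *Axin2* (chr11:108781663-108812097), a common feedback target, was at 25.5, 53.6, 52.8 and 20.3 TPM in ESCs and at 8.05, 10.1, 10.4, 5.36 and 5.22 TPM in EBs (log2 fold change -2.2 ± 0.39, adjusted p = 0.000388). *Sp5* (chr2:70312980-70315786 in mm9), whose window above holds CTTTGA at 2 places, was at 5.65, 10.1, 8.93 and 3.21 TPM in ESCs and at 0.137, 0, 0.541, 0.113 and 0.145 TPM in EBs (adjusted p = 2.52e-05). *Cdx1*, a homeobox target of WNT and retinoic acid, was at 31, 39.8, 38.9 and 52.9 TPM in ESCs and at 0.823, 0.663, 0.648, 0.952 and 0.696 TPM in EBs (log2 fold change -5.56 ± 0.38, adjusted p = 1.74e-08). None of these 3 overlapped between groups.

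The receptor gene *Fzd2* was at 1.54, 2.57, 3.91 and 3.24 TPM in ESCs and at 13.9, 41.7, 43.6, 15.6 and 15.3 TPM in EBs (log2 fold change 3.04 ± 0.51, adjusted p = 0.000253), and the secreted modulator *Sfrp2* at 3.8, 3.82, 4.54 and 3.28 TPM and 38.2, 42.3, 46.8, 18.1 and 16.7 TPM (log2 fold change 2.92 ± 0.42, adjusted p = 4.68e-05). In both genes replicates 2 and 3 were the highest EB libraries. *Ctnnb1*, β-catenin itself, was at 517, 594, 629 and 434 TPM in ESCs and at 625, 701, 709, 466 and 437 TPM in EBs and did not pass (adjusted p = 0.804). *Wnt7b*, a ligand, fell from 1.01 to 3.47 TPM to 0 to 0.525 TPM (adjusted p = 0.000771).

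Of 21 Nodal pathway members, 5 rose and 4 fell (median -0.18, 6 higher and 7 lower in the paired fit), and 4 of 7 targets and inhibitors rose. *Nodal* itself was at 99.9, 75.6, 93.8 and 99.2 TPM in ESCs and at 77.8, 68.4, 92.6, 73 and 74.9 TPM in EBs, with overlap, and passed only in the paired fit (log2 fold change -0.25 ± 0.11, adjusted p = 0.0994, 0.0352 paired). *Lefty1* (chr1:182865153-182868531), the secreted inhibitor that NODAL induces, was at 50.9, 41.8, 54.5 and 54.2 TPM in ESCs and at 256, 209, 217, 369.5 and 407 TPM in EBs (log2 fold change 2.49 ± 0.19, adjusted p = 6.95e-08). *Skil*, a SMAD corepressor, rose as well, to 139 to 181 TPM (log2 fold change 1.66 ± 0.3). Upstream of these, *Pcsk6*, a convertase that cleaves pro-NODAL, fell from 41.8, 67, 78.1 and 50.7 TPM to 5.9, 17.7, 14.6, 11.2 and 9.03 TPM (log2 fold change -2.39 ± 0.32, adjusted p = 2.57e-05). The receptor *Acvr1b* (-0.93 ± 0.29, adjusted p = 0.0248) and the activin subunit *Inhba* (-2.82 ± 0.39, adjusted p = 3.37e-05) fell too. *Acvr1b* did not pass when ESC replicate 2 or 3 or EB replicate 1 or 5 was left out (adjusted p = 0.0527 to 0.107).

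BMP pathway genes had 2 higher and 5 lower of 23 (median -0.13, 4 higher and 6 lower in the paired fit). The share that passed in limma was 30.4%, beside 24.9% of all genes tested. The ID genes, the standard BMP targets, did not move together. *Id1* was at 9.34, 2.73, 3.04 and 17.4 TPM in ESCs and at 25.9, 23, 44.3, 25.2 and 32.3 TPM in EBs, a log2 fold change of 2.25 ± 0.47 (adjusted p = 0.00152). *Id2* was at 62, 73.8, 49.1 and 73.6 TPM in ESCs and at 27.6, 22.8, 38.8, 11 and 13 TPM in EBs (-1.64 ± 0.29, adjusted p = 0.00038), and *Id4* at 19.6 to 57.3 and 3.73 to 10.5 TPM (-2.3 ± 0.38, adjusted p = 0.000183). *Id3* was at 21.4 to 65.5 TPM in ESCs and 28.5 to 64.8 TPM in EBs and did not pass (adjusted p = 0.84). Among ligands *Bmp7* fell from 8.71, 14.7, 18.4 and 13 TPM to 2.12, 3, 2.32, 4.73 and 4.52 TPM (-2.03 ± 0.38, adjusted p = 0.000671), and *Bmp4* was at 1.7 to 2.24 and 2.51 to 4.55 TPM without passing (adjusted p = 0.172). The receptor gene *Bmpr1b* rose from at most 0.0974 TPM to 0.286 to 2.19 TPM (adjusted p = 0.000624).

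Notch pathway genes had 2 higher and 3 lower of 19 (median -0.04, 5 higher and 6 lower in the paired fit). The share that passed in limma, 26.3%, was near the 24.9% of all genes tested. The ligand genes *Dll3* and *Dll1* rose, *Dll3* from 0.62, 1.77, 1.31 and 1.28 TPM to 13.7, 18.8, 16.3, 6.82 and 8.45 TPM (log2 fold change 3.24 ± 0.41, adjusted p = 1.55e-05). *Hes1*, a target shared with other pathways, fell from 62.7, 61.7, 58.3 and 66.8 TPM to 28.6, 29.2, 34, 39.5 and 40.3 TPM (log2 fold change -0.87 ± 0.2, adjusted p = 0.00299). *Rbpj*, the DNA-binding partner of Notch, was at 139.6 to 183 TPM in ESCs and 73.4 to 126 TPM in EBs (-0.71 ± 0.18, adjusted p = 0.00818). *Dll1* did not pass when ESC replicate 1 or 4 or EB replicate 2, 3, 4 or 5 was left out (adjusted p = 0.0619 to 0.15). *Rbpj* had a log2 fold change of -0.48 without library series 2 (adjusted p = 0.241).

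Retinoic acid pathway genes had 5 higher and 4 lower of 19 (median 0.11). *Rarg* (chr15:102065369-102087948), the receptor RARγ, was at 10.1, 14.7, 19.7 and 18.9 TPM in ESCs and at 56, 121, 109, 113 and 121 TPM in EBs (log2 fold change 2.7 ± 0.25, adjusted p = 4.18e-07), with EB replicate 1 lowest. *Stra6*, the retinol transporter, rose from 0.35 to 0.935 TPM to 2.49 to 4.64 TPM (adjusted p = 0.000726). *Aldh1a3*, an enzyme that makes retinoic acid, fell from 4.08 to 5.24 TPM to at most 0.254 TPM (adjusted p = 3.73e-07). Among targets *Hoxb1*, listed at 0 in all ESC libraries, was at 2.91, 0.837, 2.18, 0.687 and 1.39 TPM in EBs (adjusted p = 7.17e-05), and *Stra8* fell (log2 fold change -1.62 ± 0.58, adjusted p = 0.0486). *Stra8* did not pass when ESC replicate 1, 2, 3 or 4 or EB replicate 1, 2 or 3 was left out (adjusted p = 0.0653 to 0.123). *Stra8* had a log2 fold change of -1.66 without library series 1 (adjusted p = 0.0977) and -0.94 without library series 2 (adjusted p = 0.397).

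In the YAP-TEAD pathway, which reads cell shape and attachment, 9 of 17 members fell and 2 rose (median -1.25, 10 lower and 6 higher in the paired fit), and 5 of 7 targets fell. *Cyr61* (chr3:145309935-145312949 in mm9), whose promoter window is shown above, was at 221, 352, 319 and 277 TPM in ESCs and at 4.83, 7.72, 8.95, 5.63 and 4.43 TPM in EBs. *Ctgf*, the other standard target, was at 212, 319.5, 324 and 170.4 TPM in ESCs and at 15.6, 16.9, 13, 12.8 and 13.2 TPM in EBs. Both were lower in all EB libraries by a wide margin (log2 fold changes -5.54 ± 0.29 and -4.11 ± 0.23, adjusted p = 8.38e-10 and 1.09e-09). *Amotl2*, a YAP inhibitor that YAP also induces, fell from 161, 439, 429 and 202 TPM to 38.2, 79, 71.6, 34.9 and 34.3 TPM (log2 fold change -2.54 ± 0.47, adjusted p = 0.000539). Its relative *Amot* rose from 1.31, 0.794, 2.58 and 0.672 TPM to 11.3, 11.2, 16.5, 3.34 and 2.91 TPM (2.54 ± 0.52, adjusted p = 0.00143). *Tead2*, the main TEAD gene of early embryos, was at 132 to 194 TPM in ESCs and 178 to 341 TPM in EBs and passed only in the paired fit (0.0877, 0.000511 paired). The summed level of the feeder fibroblast markers was also lower in EBs, as given with the matrix genes, and its part in these changes was not tested.

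Immediate early genes, which respond to serum, stress and ERK within minutes, had 13 lower and 1 higher of 18 (median -2.47), with 9 of 12 transcription factors lower. *Egr1* was at 301, 437, 462 and 483 TPM in ESCs and at 3.75, 8.87, 9.23, 7.9 and 6.84 TPM in EBs (log2 fold change -5.87 ± 0.38, adjusted p = 8.19e-09). *Dusp1*, a MAP kinase phosphatase, was at 308, 552, 535 and 376 TPM in ESCs and at 50.6, 104, 96.3, 117 and 115 TPM in EBs (-2.21 ± 0.31, adjusted p = 3.74e-05). *Myc* was the member that rose, from 3.82, 8.49, 7.34 and 5.41 TPM to 35, 104, 97.8, 24.6 and 28 TPM (log2 fold change 2.97 ± 0.48, adjusted p = 0.000165), with EB replicates 2 and 3 highest. The cells were handled differently before lysis, from feeder layers or from suspension, and handling cannot be told apart from the culture state in these genes.

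**Figure D3:**
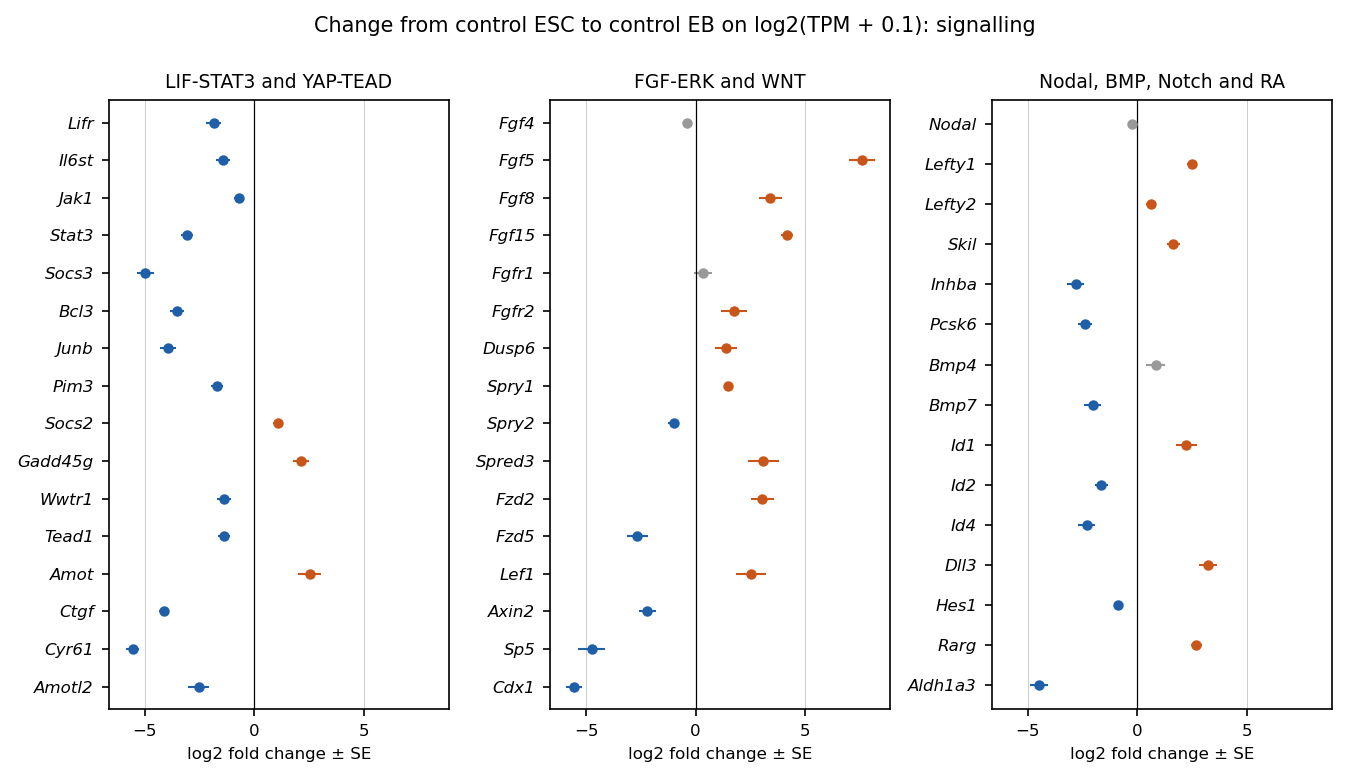
Log2 fold change, EB minus ESC on log2(TPM + 0.1), with its SE from limma, for members of the signalling lists. Orange points are higher in EBs and blue points lower past an adjusted p of 0.05, and grey points did not pass. Of the members drawn, *Cdx1*, *Cyr61* and *Socs3* lie farthest to the left and *Fgf5* farthest to the right. *Fosb* (-9.03), *Fos* (-8.23), *Klf4* (-7.12) and *Egr1* (-5.87) are members with lower values that are not drawn.

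The adhesion lists, which hold 20 markers of feeder fibroblasts, had 23 higher and 34 lower of 122 members (median -0.21), and 20 higher and 23 lower of 102 without those markers (median 0.01). Of 14 cadherins and catenins, 3 rose and 2 fell (median 0.08, 5 higher and 4 lower in the paired fit). *Cdh1*, E-cadherin, was at 287, 622, 690.1 and 277 TPM in ESCs and at 329, 787, 660.0, 336 and 311 TPM in EBs. Its levels followed the library series in both groups, with replicates 2 and 3 highest, and it passed only in the paired fit (log2 fold change 0.06 ± 0.44, adjusted p = 0.974, 0.0479 paired). *Cdh2*, N-cadherin, was at 0.674, 1.46, 1.22 and 1.54 TPM in ESCs and at 2.73, 6.36, 4.52, 0.973 and 1.05 TPM in EBs and did not pass (adjusted p = 0.285). *Cdh3*, P-cadherin, was at 10.2, 22.1, 21.8 and 8.84 TPM in ESCs and at 24.2, 32.2, 26, 36.4 and 32.6 TPM in EBs (log2 fold change 1.05 ± 0.32, adjusted p = 0.023), and *Ctnna1*, α-catenin, fell (log2 fold change -0.68 ± 0.18, adjusted p = 0.00957). *Cdh3* did not pass when ESC replicate 1 or 4 was left out (adjusted p = 0.0784 to 0.0908). *Cdh3* had a log2 fold change of 0.96 without library series 1 (adjusted p = 0.068) and 0.68 without library series 3 (adjusted p = 0.306).

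Tight junction genes had 9 higher and 3 lower of 25 (median 0.44, 16 higher and 4 lower in the paired fit), and 5 of 11 claudins rose. *Cldn5* was at 0.316, 0.6, 0.401 and 0.974 TPM in ESCs and at 6.92, 7.78, 4.8, 5.04 and 5.7 TPM in EBs (adjusted p = 0.000341). *Epcam*, an epithelial adhesion protein that binds claudins, was at 188, 149, 99.7 and 115 TPM in ESCs and at 329, 305, 244, 376 and 361 TPM in EBs (log2 fold change 1.25 ± 0.19, adjusted p = 9.78e-05). *Cldn4* was at 169.9, 389, 346 and 188 TPM in ESCs and at 64.6, 140.4, 78.8, 158 and 151 TPM in EBs (log2 fold change -1.2 ± 0.34, adjusted p = 0.013), so the most abundant claudin that the rule names fell. *Prkcz*, an atypical protein kinase C of cell polarity, and *Jam2* fell too (log2 fold changes -0.91 ± 0.2 and -4.31 ± 0.46). *Cldn4* did not pass when ESC replicate 2 was left out (adjusted p = 0.0571). *Cldn4* had a log2 fold change of -0.63 without library series 2 (adjusted p = 0.249). *Prkcz* had a log2 fold change of -0.53 without library series 2 (adjusted p = 0.172).

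Most epithelial regulators rose, and the few mesenchymal regulators that passed fell. Of 7 epithelial members, 5 rose and 1 fell, and of 7 mesenchymal members, 2 fell and none rose in limma, with 5 of all 14 members higher and 3 lower at an unadjusted p under 0.05. Over all 14 members the medians within library series 1 to 3 were 1.49, 1.37 and -0.52. *Esrp1*, the epithelial splicing factor, was at 9.24, 13.5, 15.2 and 3.23 TPM in ESCs and at 60.3, 93.3, 95.4, 58.5 and 60.5 TPM in EBs (log2 fold change 3.0 ± 0.43, adjusted p = 4.76e-05). *Ovol2*, a zinc finger repressor of mesenchymal genes, was at 3.94, 4.15, 4.81 and 4.66 TPM and 16.9, 12.9, 14.8, 10.7 and 13 TPM (1.6 ± 0.24, adjusted p = 8.38e-05). *Grhl3* fell from 19.4 to 30.6 TPM to 3.47 to 7.54 TPM (adjusted p = 2.37e-05). *Zeb1*, a mesenchymal repressor of *Cdh1*, was at 5.62, 8.77, 9.58 and 8.09 TPM in ESCs and at 1.79, 3.2, 3.42, 2.13 and 2.39 TPM in EBs, and *Vim*, vimentin, at 143, 96.5, 93.5 and 141 TPM and 37.6, 42.4, 57.2, 38.3 and 36.6 TPM (log2 fold changes -1.61 ± 0.29 and -1.47 ± 0.23, adjusted p = 0.000464 and 0.000138). *Vim* and *Zeb1* are also fibroblast genes, and the part of the feeder markers in these falls was not tested.

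Basement membrane genes had 9 lower and 1 higher of 20 (median -1.33, 14 lower and 2 higher in the paired fit), with 5 of 10 laminins lower. *Lama1*, the laminin chain of the earliest embryonic basement membranes, was at 33, 74.2, 98.8 and 37.9 TPM in ESCs and at 4.03, 5.79, 9.11, 2.92 and 2.78 TPM in EBs. *Fn1*, fibronectin, was at 1033, 2603, 3523 and 954 TPM in ESCs and at 132, 389.8, 260.3, 391 and 338 TPM in EBs, and *Nid1*, nidogen, which links laminin to collagen IV, at 222, 369, 489 and 209.8 TPM and 11.4, 24.2, 16.7, 32.5 and 27 TPM. These did not overlap between groups (log2 fold changes -3.6 ± 0.48, -2.62 ± 0.51 and -3.85 ± 0.43, adjusted p = 2.39e-05, 0.000928 and 3.35e-06). *Col18a1*, a collagen of basement membranes, was the member that rose, from 91.3, 195, 234 and 125 TPM to 206, 527, 448, 337 and 338 TPM, with overlap (log2 fold change 1.23 ± 0.36, adjusted p = 0.0167). *Col18a1* did not pass when ESC replicate 1 was left out (adjusted p = 0.0666).

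The feeder fibroblast markers moved with these genes. Of 20 markers, 11 were lower and 3 higher (median -1.90), and their summed level was 342 to 395 TPM in ESCs and 66.5 to 141 TPM in EBs. *Col1a1*, the collagen I chain, was at 126, 186, 218 and 141 TPM in ESCs and at 3.74, 9.25, 6.03, 4 and 4.12 TPM in EBs, and *Lox* and *Postn* fell as well (adjusted p = 2.23e-06 and 1.47e-06). Some defining markers ran the other way: *Dcn* was at 0.536, 0, 0 and 0 TPM in ESCs and at 5.26, 5.01, 8.16, 1.37 and 1.75 TPM in EBs, *Thy1* at 2.62 to 6.73 and 16.4 to 26.7 TPM, and *Mmp2* at 18.7 to 22.5 and 24.7 to 50.7 TPM. *Mmp2* did not pass when ESC replicate 1, 2, 3 or 4 or EB replicate 2 or 3 was left out (adjusted p = 0.0587 to 0.115). The part of feeder RNA in the matrix, integrin and mesenchymal results was not tested. *Mmp2* had a log2 fold change of 0.76 without library series 1 (adjusted p = 0.0904) and 0.4 without library series 2 (adjusted p = 0.0981).

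Integrins had 2 higher and 4 lower of 18 (median -0.27, 3 higher and 8 lower in the paired fit). *Itgb4*, the hemidesmosome subunit, was at 7.76, 20.6, 25.2 and 11.8 TPM in ESCs and at 2.1, 4.13, 4.23, 3.28 and 2.54 TPM in EBs (log2 fold change -2.2 ± 0.37, adjusted p = 0.000258), and its partner *Itga6* at 79.3 to 149.9 and 85.3 to 152 TPM without passing (adjusted p = 1). *Itgb3* and *Itga7*, below 4 TPM in all libraries, fell, and *Itgb8* rose from at most 0.0722 TPM to 0.344 to 3 TPM (adjusted p = 0.00329). Among 12 desmosome genes, *Dsg2*, a desmosomal cadherin, and *Dsp*, desmoplakin, fell (log2 fold changes -1.86 ± 0.28 and -1.76 ± 0.44, adjusted p = 8.84e-05 and 0.00629). The share of desmosome genes that passed, 16.7%, was below the 24.9% of all genes tested. For members that rose, limma gave 0, with 2 at an unadjusted p under 0.05 and 2 in the paired fit. *Itga7* had a log2 fold change of -1.5 without library series 1 (adjusted p = 0.0559) and -0.84 without library series 3 (adjusted p = 0.228).

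**Figure D4:**
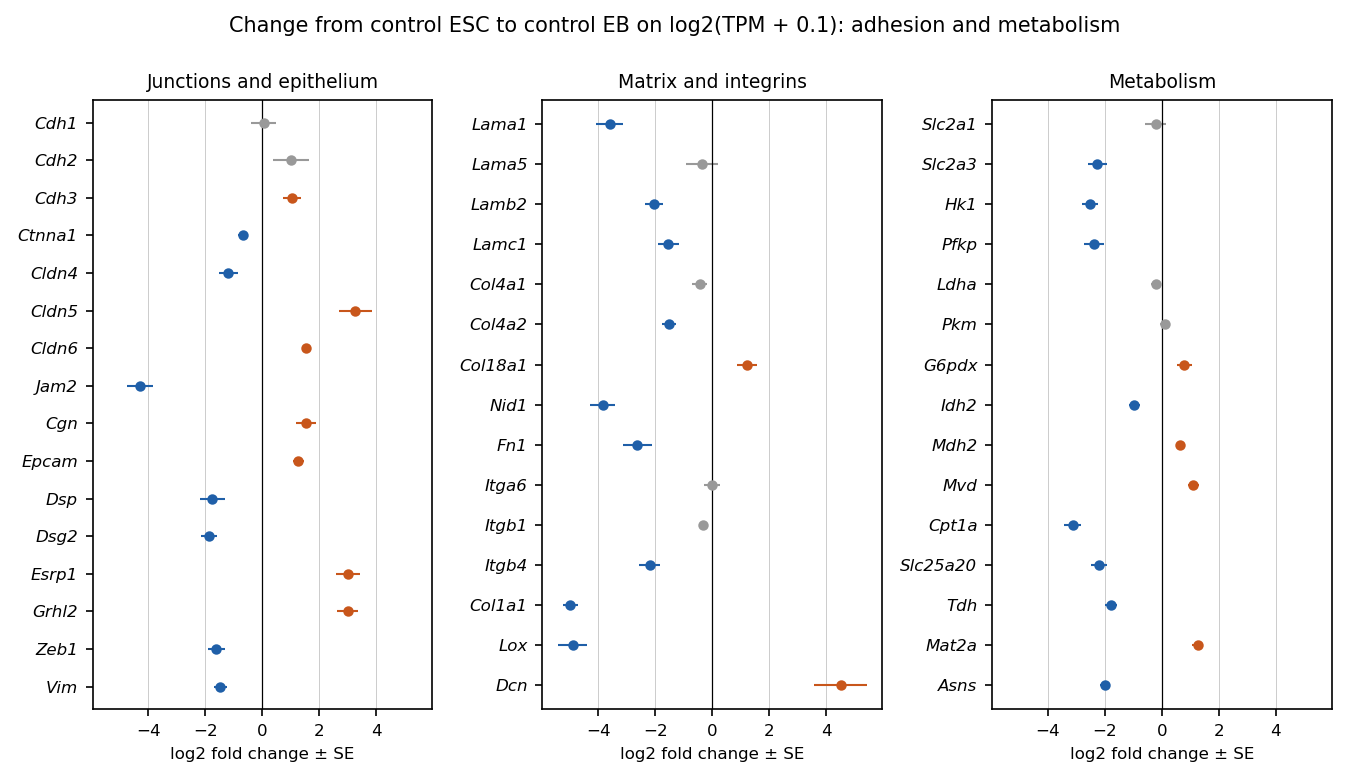
Log2 fold change, EB minus ESC on log2(TPM + 0.1), with its SE from limma, for members of the adhesion and metabolism lists. Orange points are higher in EBs and blue points lower past an adjusted p of 0.05, and grey points did not pass. Matrix genes such as *Nid1* and *Col1a1* lie to the left, and *Cldn5* and *Esrp1* to the right.

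Metabolic genes had 21 higher and 39 lower of 240 (median -0.06), a share near the 24.9% of all genes tested. The paths differed. Glycolysis genes had 10 lower and 1 higher of 30 (36.7% passed, median -0.34, 14 lower and 3 higher in the paired fit), with 7 of 18 enzymes lower. *Slc2a3* (chr6:122677827-122751658), the high-affinity glucose transporter GLUT3, was at 1345, 1637, 1841 and 1205 TPM in ESCs and at 269.6, 194, 226, 529 and 449 TPM in EBs (log2 fold change -2.27 ± 0.33, adjusted p = 5.59e-05). *Hk1*, hexokinase 1, was at 113, 218, 252 and 108 TPM in ESCs and at 20.3, 30.6, 25.1, 34.6 and 32.5 TPM in EBs (-2.51 ± 0.29, adjusted p = 4.77e-06), and *Pfkp*, a phosphofructokinase, at 200.1, 289.9, 315 and 215 TPM and 31, 41.1, 26.7, 87.4 and 81.6 TPM (-2.39 ± 0.35, adjusted p = 6.42e-05). EB replicates 4 and 5 were the highest EB libraries for all 3.

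Several abundant members did not pass. *Pkm*, pyruvate kinase, was at 3618 to 4301 TPM in ESCs and 4059 to 4625 TPM in EBs, and *Ldha*, lactate dehydrogenase A, at 1806 to 2027 and 1571 to 1822 TPM (adjusted p = 0.736 and 0.441). *Slc2a1*, the glucose transporter GLUT1, was at 491, 1065, 1195 and 526 TPM in ESCs and at 511, 665, 719.9, 711 and 663 TPM in EBs (adjusted p = 0.723). *Slc16a1*, the lactate transporter MCT1, rose by 0.35 on the log2 scale (SE 0.11, adjusted p = 0.0322). *Slc16a1* did not pass when ESC replicate 1, 2, 3 or 4 or EB replicate 2 or 3 was left out (adjusted p = 0.0524 to 0.0849). *Slc16a1* had a log2 fold change of 0.36 without library series 1 (adjusted p = 0.0559), 0.2 without library series 2 (adjusted p = 0.195) and 0.47 without library series 3 (adjusted p = 0.059).

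The pentose phosphate pathway, which makes NADPH and ribose, had 4 higher and 0 lower of 8 in limma (median 0.46). Of these 8 genes 50% passed, beside 24.9% of all genes tested. At an unadjusted p under 0.05, 0 were lower, and the paired fit gave 5 higher and 1 lower. *G6pdx*, its first enzyme, was at 45.4, 71.2, 79.6 and 58.4 TPM in ESCs and at 85.8, 153, 149, 88.9 and 83.4 TPM in EBs (log2 fold change 0.79 ± 0.27, adjusted p = 0.038). *G6pd2*, a near copy of *G6pdx* whose reads the counting may have split from it, gave 0.85 ± 0.28 and is uncertain. *Rpia*, ribose-5-phosphate isomerase, rose (0.55 ± 0.15, adjusted p = 0.00962), and *Tkt*, transketolase, was at 348 to 426 and 354 to 496 TPM without passing (adjusted p = 0.468). *G6pdx* did not pass when ESC replicate 1, 2 or 4 or EB replicate 2 or 3 was left out (adjusted p = 0.0525 to 0.124).

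TCA cycle genes had 1 higher and 4 lower of 27 (median -0.18, 4 higher and 13 lower in the paired fit). The share that passed, 18.5%, was below the 24.9% of all genes tested. *Idh2*, the mitochondrial isocitrate dehydrogenase that uses NADP, was at 324, 319.7, 314 and 314 TPM in ESCs and at 156, 147, 125, 201 and 200.2 TPM in EBs (-0.96 ± 0.19, adjusted p = 0.00086). *Mdh2*, malate dehydrogenase, was the member that rose, from 359, 272, 283 and 447 TPM to 582, 515, 546, 491 and 488 TPM (0.65 ± 0.15, adjusted p = 0.00426). *Mpc1*, a subunit of the mitochondrial pyruvate carrier, fell (adjusted p = 0.0426). *Mpc1* did not pass when ESC replicate 1, 3 or 4 or EB replicate 1, 2 or 3 was left out (adjusted p = 0.0561 to 0.124). *Mdh2* had a log2 fold change of 0.37 without library series 2 (adjusted p = 0.0891).

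None of 77 oxidative phosphorylation genes passed in limma (median -0.01), with 1 higher and 4 lower at an unadjusted p under 0.05, and 4 higher and 27 lower in the paired fit. Their summed level was 13179 to 24143 TPM in ESCs and 12142 to 21340 TPM in EBs, and it followed the library series, with replicates 2 and 3 lowest in both groups. Within the series the medians were -0.15, -0.05 and -0.17. *Atp5b*, the β subunit of ATP synthase, was at 2579, 2309, 2279 and 2347 TPM in ESCs and at 2256, 1898, 1999.9, 2085 and 1959.8 TPM in EBs and passed only in the paired fit (log2 fold change -0.22 ± 0.15, adjusted p = 0.308, 0.0119 paired).

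Cholesterol synthesis genes had 7 higher and 0 lower of 25 in limma (median 0.44, 1 lower at an unadjusted p under 0.05, and 15 higher and 4 lower in the paired fit). The share that passed in limma, 28%, was near the 24.9% of all genes tested. All 25 reached a group mean of 1 TPM, and among all such genes a larger share passed. *Mvd*, mevalonate diphosphate decarboxylase, was at 45.5, 53.1, 60.9 and 66.6 TPM in ESCs and at 100.3, 139.9, 148, 111 and 110.1 TPM in EBs (1.11 ± 0.19, adjusted p = 0.000348), and *Lss*, lanosterol synthase, at 22.6 to 46.6 and 51 to 85.9 TPM (0.95 ± 0.3, adjusted p = 0.0276). *Srebf2*, the regulator of the pathway, was at 169 to 524 and 131 to 404 TPM and passed only in the paired fit, as lower (0.604, 0.0113 paired). *Lss* did not pass when ESC replicate 1 or 4 or EB replicate 2 or 3 was left out (adjusted p = 0.0671 to 0.0981).

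Fatty acid genes had 11 lower and 1 higher of 26 (46.2% passed, median -0.44, 16 lower and 5 higher in the paired fit). Lower were 8 of 17 genes of oxidation and 3 of 9 of synthesis. *Cpt1a*, the enzyme that commits fatty acids to mitochondrial oxidation, was at 109, 186, 235 and 99.4 TPM in ESCs and at 11.2, 20.6, 12.8, 22.8 and 19.2 TPM in EBs (-3.13 ± 0.31, adjusted p = 1.01e-06). *Slc25a20*, the carnitine carrier of the next step, was at 132, 129, 112 and 124 TPM and 24.7, 28, 19.7, 32.2 and 30.7 TPM (-2.21 ± 0.28, adjusted p = 1.46e-05). *Acaa2*, a thiolase, fell and *Cpt2* rose (-0.94 ± 0.21 and 0.45 ± 0.16). *Acly*, which makes cytosolic acetyl-CoA, was at 242 to 510.1 and 321 to 785 TPM and passed only in the paired fit, as higher (0.504, 0.000345 paired). *Cpt2* did not pass when ESC replicate 1, 2, 3 or 4 or EB replicate 1, 2 or 3 was left out (adjusted p = 0.0656 to 0.109).

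In one-carbon, serine and threonine metabolism 5 of 19 genes rose and 2 fell (median 0.26, 9 and 4 in the paired fit). Within library series 1 to 3 the medians were 0.26, 0.38 and -0.18. Threonine dehydrogenase, *Tdh*, on which mouse ESCs depend for glycine, was at 426, 323, 316 and 485 TPM in ESCs and at 149, 97.4, 78.4, 125 and 115 TPM in EBs (adjusted p = 1.02e-05). *Amt*, a subunit of the glycine cleavage system, fell (-0.88 ± 0.17, adjusted p = 0.000725), but *Gldc*, its decarboxylase subunit, rose from 73.8, 106, 116 and 85.6 TPM to 168, 306, 245, 201 and 192 TPM (1.21 ± 0.23, adjusted p = 0.000758). *Mat2a*, which makes S-adenosylmethionine, was at 173, 135, 111 and 176 TPM in ESCs and at 426, 368, 429.7, 279 and 283 TPM in EBs (1.26 ± 0.19, adjusted p = 6.89e-05). Among amino acid response genes, with 2 higher and 6 lower of 16, *Asns*, asparagine synthetase, was at 1139.5, 869, 854 and 986 TPM in ESCs and at 254, 203, 199, 283 and 257 TPM in EBs (-2.01 ± 0.18, adjusted p = 2.91e-07). *Slc7a11*, the cystine transporter, rose (1.07 ± 0.15, adjusted p = 3.94e-05), and *Cth*, cystathionine γ-lyase, fell (-0.81 ± 0.27, adjusted p = 0.0325). *Cth* did not pass when ESC replicate 1 or 4 or EB replicate 1, 2 or 3 was left out (adjusted p = 0.0531 to 0.117).

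Hypoxia-responsive genes had 6 lower and 0 higher of 17 in limma (median -0.86, 1 higher at an unadjusted p under 0.05, and 7 lower and 1 higher in the paired fit), and they differed by library series. Within series 1 to 3 the medians were -1.15, -1.22 and 0.25, so replicates 4 and 5 went against the others. *Ndrg1* was at 62.5, 80.1, 94.7 and 45.9 TPM in ESCs and at 1.79, 2.61, 2.35, 38.2 and 31.3 TPM in EBs (-3.32 ± 0.94, adjusted p = 0.0139), where EB replicates 4 and 5 lay close below the ESC libraries and the others far below. *Adm*, *Ankrd37* and *Egln3*, named after their values were seen, were at 0.626, 1.26, 0.411, 35.8 and 30.2, at 8.29, 3.21, 3.14, 37.9 and 33.2 and at 42.8, 55.7, 50, 157 and 148 TPM in EBs, with replicates 4 and 5 highest in each. In ESCs they were at 4.92 to 8.74, 11.9 to 24.7 and 50.6 to 99.5 TPM. *Vegfa*, the vascular growth factor, was lower in every EB library, at 45.7, 127, 125 and 72.9 TPM in ESCs and at 5.32, 21.7, 17.9, 20.6 and 18.6 TPM in EBs (-2.49 ± 0.46, adjusted p = 0.000527), as was *P4ha1*, a collagen prolyl hydroxylase (-2.04 ± 0.38, adjusted p = 0.000569). *Ndrg1* had a log2 fold change of -2.9 without library series 1 (adjusted p = 0.0851) and -2.03 without library series 2 (adjusted p = 0.285). *P4ha1* had a log2 fold change of -1.28 without library series 2 (adjusted p = 0.068).

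**Figure D5:**
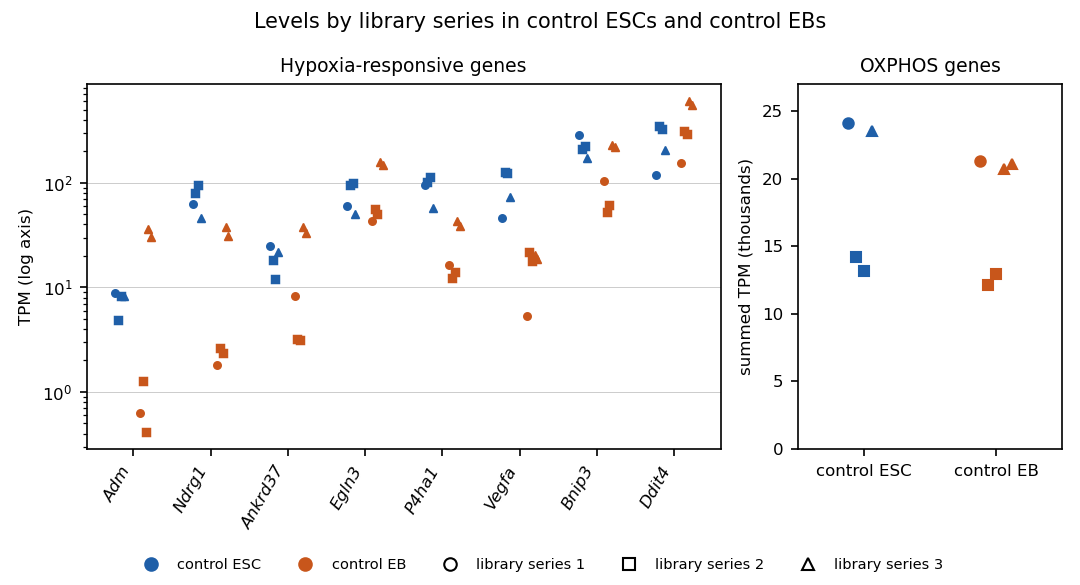
Left, TPM on a log axis of hypoxia-responsive genes in each control ESC (blue) and control EB (orange) library, with 1 symbol shape per library series. Right, summed TPM of the oxidative phosphorylation genes. EB libraries of series 3 lie above the other EB libraries for *Adm*, *Ndrg1*, *Ankrd37* and *Egln3*, and series 2 lies lowest in the right panel in both groups.

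Across all genes with a group mean of at least 10 TPM, the largest changes included genes outside these lists. *Vrtn*, a gene known from the number of vertebrae, was at 0.496, 0.471, 0.944 and 0.27 TPM in ESCs and at 49.8, 79.1, 94.1, 44.5 and 46.2 TPM in EBs (6.64 ± 0.47, adjusted p = 2.77e-08), and *Bcl11a*, a zinc finger repressor, at 0.0319, 0.0605, 0 and 0.0809 TPM and 9.16, 18.6, 18.7, 8.95 and 9.91 TPM (6.47 ± 0.51). *Enpp2*, the autotaxin that makes lysophosphatidic acid, rose from 2.79, 2.99, 2.31 and 0.703 TPM to 122, 101, 120.4, 61.2 and 56.9 TPM (5.43 ± 0.59, adjusted p = 2.82e-06). *Jph4*, a junctophilin, rose to 13.5 to 98.7 TPM. In the other direction, *Thbs1*, thrombospondin 1, was at 66.9, 61.5, 63.7 and 95.6 TPM in ESCs and at 0.993, 2.6, 1.76, 0.82 and 0.813 TPM in EBs (-5.71 ± 0.33, adjusted p = 2.29e-09), and *Ly6g6e*, a surface antigen gene, at 95.8, 61.6, 52.9 and 59.9 TPM and 2.53, 1.02, 0, 3.77 and 1.47 TPM. *Osr2*, a zinc finger factor, was at 7.84 to 16.1 TPM in ESCs and at most 0.678 TPM in EBs (adjusted p = 4.64e-06).

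By this rule the largest rise was that of *Car4*, a membrane-bound carbonic anhydrase, from 0.516, 0.327, 0 and 0.686 TPM in ESCs to 96.7, 72.2, 73.3, 82.7 and 83.4 TPM in EBs. *Wt1*, a zinc finger factor of kidney and gonad, was at most 0.184 TPM in ESCs and 19 to 45.2 TPM in EBs, and *Tmem54*, a membrane protein gene, at most 0.486 and at 15.5 to 44.2 TPM. *Edn1*, endothelin 1, was at 7.27 to 16.3 TPM in ESCs and at most 0.247 TPM in EBs (adjusted p = 3.22e-08). Some of the other genes that the rule gives are described by their calls alone. *Fndc3c1*, *Tcerg1l*, *Zfp608* and *2610528J11Rik* rose, with log2 fold changes between 5.86 and 6.66. *Gm15698* (200.5 to 398 TPM in ESCs, 0.7 to 6.95 TPM in EBs) and *2210409E12Rik* (288 to 968 and 1.5 to 15.1 TPM), annotated as a pseudogene, fell. *Mir425*, *Mir196a-1*, *Mir6910* and *Snord11* passed as lower, but are short genes with wide spread. *Snord11* did not pass when ESC replicate 3 or 4 or EB replicate 1, 2 or 3 was left out (adjusted p = 0.0517 to 0.0816). *Mir425* was at 2.63, 25, 33.4 and 1.91 TPM in ESCs and is listed at 0 in all EB libraries.

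Leaving out a whole library series, an alternative added after seeing the data, took the call from further genes. Of 165 named genes that passed, 22 did not pass without series 1 (*Cdh3*, *Cpt2*, *Cth*, *Dll1*, *G6pd2*, *G6pdx*, *Itga7*, *Lss*, *Mmp2*, *Mov10l1*, *Mpc1*, *Ncam1*, *Ndrg1*, *Slc16a1*, *Snord11*, *Stra8* and *Wnt3* among them, adjusted p = 0.0559 to 0.172), 32 without series 2 (*Acvr1b*, *Bmp7*, *Bmpr1b*, *Cldn4*, *Cpt2*, *Dcn*, *Gbx2*, *Hes1*, *Itgb3*, *Lifr*, *Mdh2*, *Mir6910*, *Mmp2*, *Mov10l1*, *Ndrg1*, *P4ha1*, *Phlda1*, *Piwil2*, *Prdm1*, *Prkcz*, *Pth1r*, *Rbpj*, *Rpia*, *Slc16a1*, *Snord11*, *Stra8* and *Wnt3* among them, adjusted p = 0.0505 to 0.397) and 25 without series 3 (*Acaa2*, *Acvr1b*, *Cdh3*, *Col18a1*, *Cpt2*, *Cth*, *Ctnna1*, *Dll1*, *Dsp*, *G6pdx*, *Gsc*, *Itga7*, *Itgb3*, *Lef1*, *Lss*, *Mov10l1*, *Ncam1*, *Piwil2*, *Pth1r*, *Rpia*, *Slc16a1* and *Spry2* among them, adjusted p = 0.0511 to 0.306).

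The change from ESC to EB was then set beside that of *Pcgf1*-KO cells. Among *Pcgf1*-KO libraries 3770 of 20594 genes passed (18.3%), with 8.13% of genes higher and 10.2% lower in EBs. Over the same 14034 genes, r between the 2 changes was 0.851 (Spearman's rho 0.832), a description across genes of libraries that share the line and the library series. Of 4488 of these that passed in control cells, 98.1% had the same sign in *Pcgf1*-KO cells. The median ratio of the *Pcgf1*-KO change to the control change was 0.734. The call in control cells may in part set this ratio. Naive regulators had a list median of -1.49 after *Pcgf1* KO, against -2.43, and immediate early genes -2.77, against -2.47. Primitive endoderm genes had 1.34 there (7 higher, 0 lower), against -0.07 (3 higher, 4 lower). These list medians were not tested against each other. In the test of the difference itself, 1 gene passed (0.00486%), *Mapk12*, chosen after its value was seen. It encodes the stress kinase p38γ and was at 1.89, 3.14, 4.21 and 3.86 TPM in control ESCs and 47.9, 48.8, 44.7, 37.5 and 37.9 TPM in control EBs (log2 fold change 3.74 ± 0.19), against 7.92 to 9.81 TPM in ESCs and 29.6 to 39.3 TPM in EBs after *Pcgf1* KO (log2 fold change 1.98). The control change was larger by 1.75 (SE 0.26, adjusted p = 0.0465). At an unadjusted p under 0.05, 621 differences were positive and 574 negative, and in the paired fit 161 and 172 passed. No positive difference passed when control EB replicate 1, 3 or 5, control ESC replicate 2, *Pcgf1*-KO EB replicate 2, 4 or 5, or *Pcgf1*-KO ESC replicate 1, 3, 4 or 5 was left out. A difference that did not pass is not shown to be absent.

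The control change of the *Pcgf1* line differed from that of untreated *Ring1A*-pm; *Ring1B*-cpm cells at 267 of 20526 genes (1.3%), 78 of them more positive (0.38%) and 189 more negative (0.921%) in the *Pcgf1* line. Line, genotype and culture batch cannot be told apart here, and that line has 2 libraries per group. A difference that did not pass is not shown to be absent. Over the 14034 genes above, r between the 2 changes was 0.482 (Spearman's rho 0.351). Of the 4488 that passed in the *Pcgf1* line, 72.5% had the same sign there. List medians there were 0.01 for basement membrane, 0.38 for glycolysis and 1.48 for hypoxia-responsive genes, against -1.33, -0.34 and -0.86 in the *Pcgf1* line. Naive, formative and immediate early genes had -1.47, 2.12 and -0.54 there, against -2.43, 2.85 and -2.47. In the paired fit 277 differences were positive and 373 negative. The positive count was 23, 36, 34, 19 and 21 without EB replicate 2 or 3 or ESC replicate 1, 2 or 3 of the *Pcgf1* line, and 37 and 193 without EB replicate 2 or ESC replicate 2 of the other line. The negative count was 90, 115, 115, 60 and 65 without those 5 libraries in the same order, and 302 and 64 without EB replicate 1 or ESC replicate 1 of the other line. The immediate early list had 7 of 18 members with a more negative change in the *Pcgf1* line and the feeder markers 6 of 20. *Fos* and *Fosb* differed by -6.72 and -6.61 on the log2 scale, *Cyr61* by -3.30 and *Col1a1* by -3.95 (adjusted p = 0.0298, 0.0162, 0.00463 and 0.00405). Their ESC levels were lower in that line, at 3.56 to 47.2 TPM for *Fos*, 9.96 to 13.3 TPM for *Cyr61* and 5.56 to 6.98 TPM for *Col1a1*, against 366 to 803, 221 to 352 and 126 to 218 TPM in control ESCs of the *Pcgf1* line. In EBs of that line these genes were at 2.68 to 7.55, 2.02 to 2.75 and 3.01 to 3.01 TPM, against 0.542 to 3.41, 4.43 to 8.95 and 3.74 to 9.25 TPM. The naive list had 1 of 24 members that differed, as more negative in the *Pcgf1* line, and the formative list 2 more positive and 1 more negative of 20. In that line 376 genes passed from ESC to EB (1.83%, with 1.15% higher and 0.682% lower), with 5 of 24 naive regulators lower and 7 of 20 formative genes higher.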

How the data were processed

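RNA-seq reads, single-end according to the study's methods, were aligned, per the submitters' processing notes, with STAR (version 2.5.2b) to mm9 and counted on exons. The authors deposited TPM for 24391 genes listed by symbol in each library, and how TPM were made is not given in the sources used here. TPM keep no depth, so no counting interval is given. Libraries were grouped by their labels, 36 deposited files of other groups were not used, and 0 of 253 pairs of the libraries read held identical values.

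log2(TPM + 0.1) was fitted in R (version 4.3.3) with limma (version 3.58.1), with the 4 groups of the *Pcgf1* line in 1 fit, an empirical Bayes trend, genes above 0 in at least 1 library, and Benjamini-Hochberg adjustment over all of them. Differences from *Pcgf1*-KO and from *Ring1A*-pm; *Ring1B*-cpm cells are interaction contrasts. The alternatives were a pseudocount of 1, a mean of at least 1 TPM, no filter, median-of-ratios scaling, quantile normalization, only the groups compared, a replicate or series block, and leaving out 1 library, with leaving out each library series added after seeing the data. Same-numbered ESC and EB libraries deviated together from their group means (r = 0.521, 0.299, 0.307 and 0.333 over 13446 genes, numbers from the labels), and the numbers were used as a block. Differently numbered libraries of 1 series also deviated together (r = 0.237 to 0.432), while those of different series had r from -0.402 to 0.0728. In the series with more than 1 replicate, same-numbered libraries (r = 0.299 to 0.333) lay within the range of differently numbered ones. Deviations thus followed the series, and the numbers were not shown to mark pairs beyond it. Library series were read from identifiers in the headers of the files. In simulated data with the groups of control EBs against control ESCs (20594 genes), 100 genes at a mean of at least 1 TPM were given each log2 change. Noise was drawn independently for each library. The calls held 39% of genes given a log2 change of 1 and 79% of those given a change of 2, and 7.09% of calls were false. In the data 24.9% of genes passed and deviations were shared within a series, so these rates may not hold for them.

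The lists and members were chosen with earlier results of these data known. Genes were named by this rule. In each list, the members that passed and reached a group mean of 1 TPM were ranked by log2 fold change, and the top 3 that rose and the top 3 that fell were named, with the member of the highest mean TPM. Added whatever their test were 30 genes with known roles, and the 15 highest and 15 lowest of all genes that passed, reached a group mean of 10 TPM and had no overlap between groups. Some genes that the rule gives are not reported here. *Mapk12*, *Spry1*, *Dusp6*, *Adm*, *Ankrd37*, *Egln3*, *Ndufs5* and *Hmgcs1*, and further list members in the plots, were chosen after their values were seen. Gene positions are those of GENCODE vM1 (NCBIM37, mm9), and promoters those of RefSeq (GRCm38.p6). Tables and plots were made in Python 3.11.15 with pandas 2.3.3, numpy 2.4.6, scipy 1.17.1 and matplotlib 3.10.9.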

Additional observations from a re-analysis of the deposited data

Results flagged for a closer look

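In groups of 4 or 5 libraries, 1 library of 27 named results stood apart from its group by Dixon's criterion (the gap to the nearest library over the group's range, 95% level). Chance alone gives such a gap in about 1 group in 20. As 196 genes were named, each with an ESC and an EB group, many of the 27 gaps may be due to chance. In EB replicate 1 the library that stood apart was low for *Lef1* (10.9 TPM), *Piwil2* (6.04), *Pth1r* (1.17), *Rarg* (56.0), *Slc2a1* (511) and *Vegfa* (5.32), and high for *Acaa2* (24.8) and *Sycp3* (52.7). EB replicate 3 was high for *Apln* (5.94 TPM), *Cdx2* (2.64), *Gata2* (2.10), *Sp5* (0.541) and *Vim* (57.2). EB replicate 2 was high for *Edn1* (0.247 TPM), EB replicate 4 for *Mir6910* (7.21 TPM) and *Spic* (0.376), and EB replicate 5 for *Mir196a-1* (4.48) and *Snord11* (2.42).

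Among ESC libraries, replicate 1 was high for *Tdgf1* (1724 TPM), *Dcn* (0.536) and *Itgb8* (0.0722), and low for *Klf2* (464). Replicate 4 was high for *Gm15698* (398 TPM), *Gsc* (5.53) and *Thbs1* (95.6), replicate 3 for *G6pd2* (12.2 TPM) and replicate 2 for *Zfp608* (0.556 TPM).

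For 20 named genes the change from ESC to EB differed between control cells of the *Pcgf1* line and untreated cells of the *Ring1A*-pm; *Ring1B*-cpm line in limma (adjusted p under 0.05, log2 of the first change minus the second). The difference was positive for *Wnt8a* (4.49), *Thy1* (2.54), *Bmp4* (2.09) and *Dppa2* (1.37). It was negative for *Fos* (-6.72), *Fosb* (-6.61), *Gm15698* (-4.74), *Klf4* (-4.54), *Spic* (-4.51), *Postn* (-4.51), *Col1a1* (-3.95), *Krt7* (-3.93), *Id2* (-3.82), *Thbs1* (-3.72), *P4ha1* (-3.61), *Ctgf* (-3.33), *Cyr61* (-3.30), *Dusp1* (-3.003), *Otx2* (-2.60) and *Esx1* (-2.30). *Id2* and *P4ha1* fell in the *Pcgf1* line, while in the other line their levels were 6.15 to 8.2 TPM in ESCs and 31.9 to 33.1 TPM in EBs for *Id2* and 22.1 to 36 and 60.9 to 116 TPM for *P4ha1*. *Otx2* was higher in EBs in both, at 6.61 to 7.86 and 197 to 204 TPM in the other line. Between control and *Pcgf1*-KO cells of the *Pcgf1* line, the change of *Mapk12* differed by 1.75 on the log2 scale.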

How the results depend on the processing

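The numbers of genes that passed from control ESCs to control EBs, 2377 higher and 2761 lower, moved by over 1.5 times only in the 2 fits with a block. The paired fit gave 4255 and 4795, and the library series as a block gave 4349 and 4906. All 5138 genes called in the fit reported had the same sign in the paired fit and 5135 of them passed in it. The other settings (pseudocount 1, a mean of at least 1 TPM, no filter, median-of-ratios scaling, quantile normalization, only the groups compared) gave 1991 to 2796 higher and 2355 to 2850 lower, leaving out 1 library gave 1959 to 2338 and 2179 to 2783, and leaving out a library series, chosen after seeing the data, gave 1864 to 1932 and 1916 to 2585. Of 165 named genes that passed, 115 passed in all 20 alternatives, and all 165 kept their direction. In the paired fit 31 of 33 gene lists changed their count of calls, given with each list where it moved by over 1.5 times, and of the named genes 0 lost and 14 gained the call, *Msi1* (adjusted p = 0.375, 0.00691 paired) and *Ahcy* (0.341, 0.00177 paired) among them.

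For the difference from *Pcgf1*-KO cells, 1 positive and 0 negative, the paired fit gave 161 and 172, the series as a block 249 and 238, a mean of at least 1 TPM 2 and 1, median-of-ratios scaling 6 and 6, pseudocount 1 3 and 5, and quantile normalization 11 and 16. Leaving out 1 library gave 0 to 2 and 0 to 5. For the difference from the *Ring1A*-pm; *Ring1B*-cpm line, 78 positive and 189 negative, the paired fit gave 277 and 373 and the series as a block 1231 and 1422. There, pseudocount 1 gave 289 negative, median-of-ratios scaling 119 positive and quantile normalization 141 positive, and leaving out 1 library gave 19 to 193 and 60 to 302. The cause of these moves was not tested.

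Named genes that changed sign had not passed in the fit reported. *Cdh1* had 0.0568 in the fit reported and -0.15 to 0.28 when 1 library was left out, -0.0247 under quantile normalization, -0.0274 without library series 1. *Ctnnb1* had 0.0979 in the fit reported and -0.0051 to 0.20 when 1 library was left out. *Gata6* had -0.86 in the fit reported and 0.16 without library series 2. *Id3* had 0.13 in the fit reported and -0.16 to 0.37 when 1 library was left out, -0.73 without library series 2. *Itga6* had -0.0001 in the fit reported and -0.15 to 0.16 when 1 library was left out, 0.0678 with the series as a block, 0.056 under median-of-ratios scaling, 0.0408 under quantile normalization, 0.0672 in the paired fit, 0.10 without library series 2, 0.0413 without library series 3. *Pkp4* had 0.035 in the fit reported and -0.20 to 0.20 when 1 library was left out, -0.13 without library series 1. *Pou5f1* had 0.10 in the fit reported and -0.0263 to 0.23 when 1 library was left out, -0.0203 under quantile normalization, -0.0687 without library series 2. *Rxrb* had 0.14 in the fit reported and -0.12 to 0.35 when 1 library was left out, -0.0001 without library series 1. *Slc2a1* had -0.22 in the fit reported and 0.29 without library series 2. *Sycp3* had -0.13 in the fit reported and -0.49 to 0.17 when 1 library was left out. *T* had -0.22 in the fit reported and -0.58 to 0.11 when 1 library was left out, 0.47 without library series 3. The TPM values keep no read depth, so depth cannot be used to say what was not detectable.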
